A study of Capra hircus with 3 samples.

Results

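Interferon-stimulated genes are the genes that cells switch on when interferon, the alarm cytokine of viral infection, binds its receptors. A list of 39 such genes was examined in the mammary gland of lactating goats, with its members taken by gene symbol. The symbols were matched to goat NCBI gene IDs, and 31 of the 39 genes had deposited values, among 13023 protein-coding genes and 50041 rows in all. IFIT1, OAS1, OAS2, USP18, SP100, GBP2 and GBP4 were not found by symbol in the gene table used here, and MX2 was found there but matched no row, so these 8 genes were not analysed here. The tissue came from Laoshan dairy goats, 4 years old and in the third lactation, with natural lighting and free access to food and water. Mammary tissue was removed surgically under Xylazine Hydrochloride anaesthesia in early lactation (day 10 after parturition), peak lactation (day 90) and late lactation (day 210). At each stage, the RNA of 5 goats was mixed in equal parts into 1 stranded library. The methods describe a single set of 5 goats, sampled at the 3 stages and released after recovery. By this account, the 3 pools hold RNA of the same animals. The values are FPKM, sequenced fragments scaled by transcript length and by library depth, so levels can be compared between genes of different length. With 1 pooled library per stage there is no replicate, no error and no p-value for any difference, and "at least 2-fold" below describes these 3 libraries only.

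Type I and type III interferons act through JAK kinases on STAT proteins such as STAT2, which join IRF9 and bind interferon-response elements in promoters. Interferon gamma acts in part through IRF1. The induced proteins sense viral RNA, block its translation or degrade it, tag proteins with ISG15, or deplete nucleotides. Many of them are also made at a low level without infection, in leukocytes and in epithelium. In bulk tissue, more cells of a type and more RNA per cell cannot be told apart.

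The assignment of columns to stages rests on the labels. For peak against late lactation, 148 annotated lncRNA genes with deposited values are also in a supplementary list of the study. By label, the direction between the columns was that of the list for 20 of them and opposite for 128. For late against early lactation, the study's list shared 135 such genes. The direction was that of the list for 58 by label, and for 117 with the peak and late labels exchanged. For peak against early lactation, it was that of the list for 36 of 67 by label and for 43 with the labels exchanged. A stage name below therefore means the library carrying that label, and if the peak and late labels were interchanged, all values given for these stages would change places. Milk protein genes set the peak-labelled library apart, since CSN3, encoding kappa-casein, had 25445 FPKM in early, 3989 FPKM in peak and 27391 FPKM in late lactation. LALBA, encoding alpha-lactalbumin, had 70053 FPKM in early lactation but a listed 0 in late lactation, so a listed 0 is not read as absence here. The epithelial markers EPCAM and KRT8 had at least 60.0 and 126 FPKM in each library. The read numbers behind each FPKM are unknown.

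The interferon-stimulated genes were low to moderate in abundance, and most were highest in the peak-labelled and lowest in the late-labelled library. Their FPKM ran from 1.28 to 29.9 with a median of 6.58 in early lactation, from 1.40 to 39.1 with a median of 7.58 in peak lactation, and from 0.265 to 23.3 with a median of 4.82 in late lactation. All 31 genes were above 0 in the 3 libraries and had a mean of at least 1 FPKM. The protein-coding genes had medians of 7.0, 7.21 and 6.78 FPKM. Above them lay 15 of the 31 genes in early, 18 in peak and 11 in late lactation. The sum over the 31 genes was 279 FPKM in early, 361 FPKM in peak and 227 FPKM in late lactation. The highest value was in the peak-labelled library for 24 of the 31 genes, or 77.4%, against 43.7% of all protein-coding genes. The lowest value was in the late-labelled library for 22 genes, or 71.0%, against 38.8% of all protein-coding genes. The full order of peak, early and late from high to low held for 22 genes, beside 30.6% of all protein-coding genes.

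**Figure D1:**
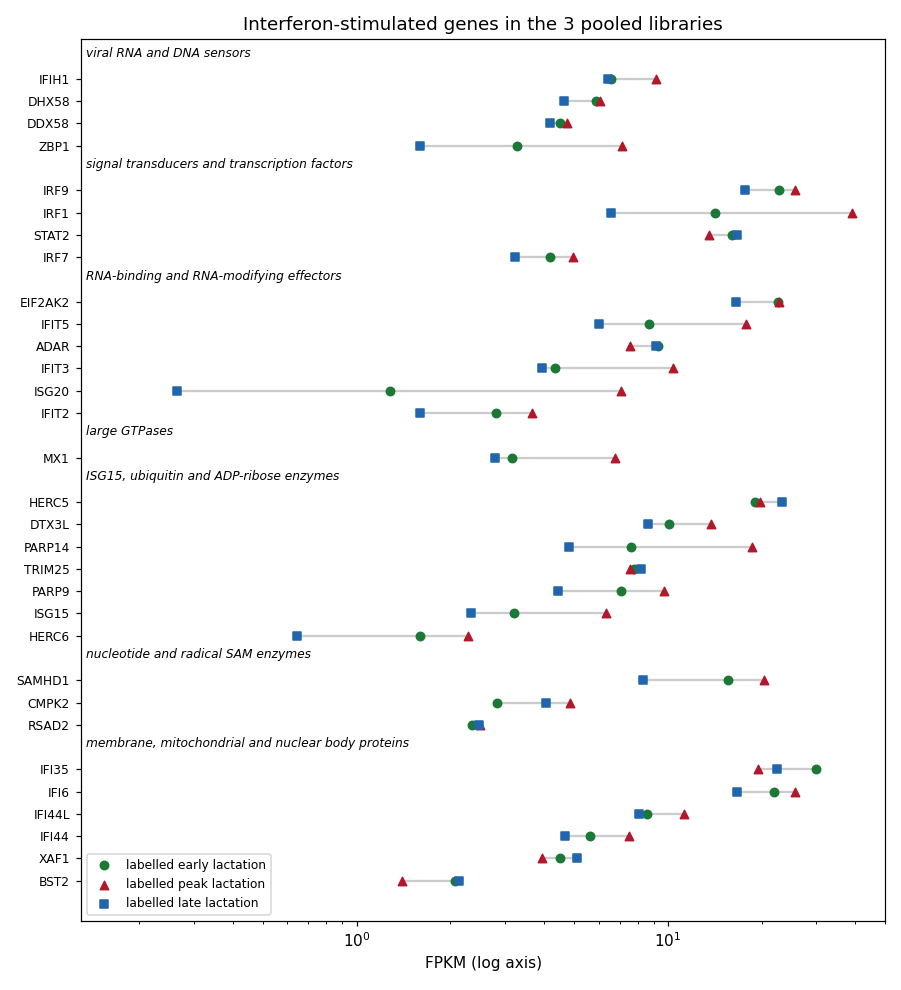
FPKM (log axis) of the 31 interferon-stimulated genes in the early-labelled (circles), peak-labelled (triangles) and late-labelled library (squares), 1 pooled library each, grouped by role and ordered by mean level, with a grey line from the lowest to the highest value. The triangle is the rightmost symbol for 24 genes, and ISG20 has the widest spread, from 0.265 to 7.08 FPKM.

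From the early-labelled to the peak-labelled library, 7 of the 31 genes were at least 2-fold higher and 0 were lower. These were ISG20, IRF1, PARP14, IFIT3, ZBP1, MX1 and IFIT5. The share of 22.6% stands beside 10.9% of all protein-coding genes that were at least 2-fold higher, or 8.36% of those with a mean of at least 1 FPKM, while 6.8% of all were lower. The median log2 ratio of peak over early lactation was 0.39 over the 31 genes and 0.01 over all protein-coding genes, with a range of -0.62 to 2.47 among the interferon-stimulated genes. With a pseudocount of 1 FPKM added to both values, 4 of the 31 genes were at least 2-fold higher, namely ISG20, IRF1, PARP14 and IFIT3, beside 4.61% of all. With each library scaled to the same FPKM sum, the count was 8, beside 13.8%. At 3-fold it was 1, ISG20, a smaller share of the 31 genes than the 4.23% of all.

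From the early-labelled to the late-labelled library, 4 of the 31 genes were at least 2-fold lower and 0 were higher. These were ISG20, HERC6, IRF1 and ZBP1, a share of 12.9% beside 6.74% of all protein-coding genes, or 4.23% of those with a mean of at least 1 FPKM, while 1.97% of all were higher. The median log2 ratio of late over early lactation was -0.34 over the 31 genes and -0.03 over all protein-coding genes. With the same FPKM sum per library the count was 2, beside 5.6% of all. With a pseudocount of 1 FPKM it was 1, IRF1, beside 1.58%. At 3-fold it was 1, ISG20, a smaller share of the 31 genes than the 3.47% of all.

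From the peak-labelled to the late-labelled library, 12 of the 31 genes were at least 2-fold lower and 0 were higher. The share was 38.7%, beside 17.4% of all protein-coding genes, or 13.9% of those with a mean of at least 1 FPKM, while 8.56% of all were higher. The 12 genes were ISG20, IRF1, ZBP1, PARP14, HERC6, IFIT5, ISG15, IFIT3, SAMHD1, MX1, IFIT2 and PARP9, and the other 19 genes stayed within 2-fold in each comparison. The median log2 ratio of late over peak lactation was -0.62 over the 31 genes and -0.03 over all protein-coding genes. At 3-fold the count was 5, beside 9.8% of all. It was 10 with a pseudocount of 1 FPKM and 12 with the same FPKM sum, beside 9.33% and 17.7%. Each library enters a pair of these 3 comparisons, so their results are linked.

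At a looser limit of 1.5-fold in either direction, 10, 8 and 17 of the 31 genes were apart in the 3 comparisons, in the order above, beside 36.8%, 17.8% and 44.0% of all protein-coding genes. The shares of the 31 genes were 32.3%, 25.8% and 54.8%, so the first lay below that of all genes. For 10 of the 31 genes, a related copy or a shared span may have split the reads. These were IFIT2, IFIT3, IFIT5, MX1, IFI44, IFI44L, HERC5, HERC6, EIF2AK2 and BST2. Among the other 21 genes, 4, 3 and 7 were at least 2-fold higher, lower and lower in the 3 comparisons. Over all protein-coding genes, 10.9%, 6.74% and 17.4% were past 2-fold in the same directions.

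**Figure D2:**
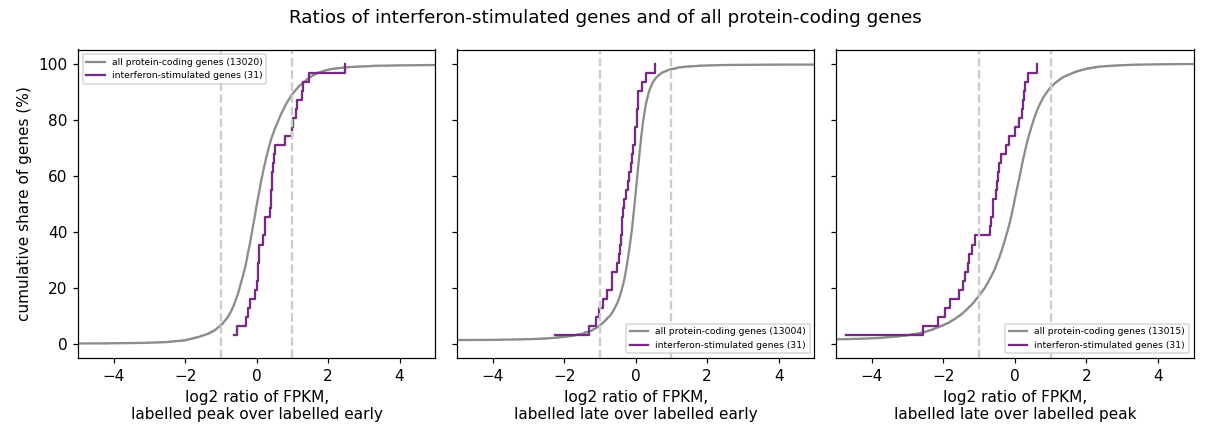
Cumulative share of genes (%) against the log2 ratio of FPKM, for the 31 interferon-stimulated genes (purple) and all protein-coding genes (grey, number in each panel), in the comparisons peak over early, late over early and late over peak by label, with dashed lines at 2-fold. Values beyond 5 on the log2 scale are outside the axis. The purple curve lies to the right of the grey one around its middle in the first panel and to the left in the others, with medians of 0.39, -0.34 and -0.62 against 0.01, -0.03 and -0.03.

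The sensors of viral nucleic acid differed from each other in how far they moved. ZBP1, which binds left-handed nucleic acid and can start cell death, had 3.26 FPKM in early, 7.13 FPKM in peak and 1.59 FPKM in late lactation. It was 2.18-fold higher in peak than in early lactation and 2.05-fold lower in late than in early lactation. The RIG-I-like receptors, which detect viral double-stranded RNA in the cytosol, stayed within 1.5-fold. IFIH1, encoding MDA5, had 6.58, 9.18 and 6.44 FPKM in early, peak and late lactation. DDX58, encoding RIG-I, had 4.50, 4.74 and 4.19 FPKM. DHX58, encoding the related LGP2, had 5.88, 6.03 and 4.64 FPKM. All 4 sensors had their highest value in the peak-labelled and their lowest in the late-labelled library, but for DDX58 the extremes were 1.13-fold apart.

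Among the signal transducers and transcription factors, IRF1 stood apart from STAT2, IRF9 and IRF7. IRF1, a transcription factor induced by interferon gamma and by type I interferon, had 14.2 FPKM in early, 39.1 FPKM in peak and 6.55 FPKM in late lactation. It was 2.75-fold higher in peak and 2.17-fold lower in late than in early lactation, and 5.97-fold apart between peak and late lactation. In the peak-labelled library it had the highest level of the 31 genes and lay above 94.0% of protein-coding genes, against 48.8% in the late-labelled one. IRF9, the DNA-binding partner of the STATs, had 22.7, 25.5 and 17.7 FPKM in early, peak and late lactation. STAT2 had 16.1, 13.5 and 16.6 FPKM, with its lowest value in the peak-labelled library. IRF7, which drives the later wave of type I interferon genes, had 4.17, 4.94 and 3.22 FPKM. STAT2, IRF9 and IRF7 were thus less than 2-fold apart in any comparison.

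The proteins that bind or modify RNA held the gene with the widest spread. ISG20, an exonuclease that degrades single-stranded RNA, had 1.28 FPKM in early, 7.08 FPKM in peak and 0.265 FPKM in late lactation. The ratio was 5.54-fold between peak and early, 4.82-fold between early and late and 26.7-fold between peak and late lactation. The late value, which enters the last pair of ratios, is below 1 FPKM. With a pseudocount of 1 FPKM, the log2 ratio of late over early lactation went from -2.27 to -0.85, within 2-fold. ISG20 was the one gene of the list that was at least 3-fold apart between early and peak lactation. Its level lay above 3.4% of protein-coding genes in the late-labelled library and above 49.3% in the peak-labelled one.

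The IFIT proteins bind viral RNA and limit its translation, and 3 of the 4 listed were measured. IFIT3 had 4.33 FPKM in early, 10.4 FPKM in peak and 3.95 FPKM in late lactation, 2.40-fold higher in peak than in early lactation. IFIT5 had 8.72, 17.8 and 6.02 FPKM, 2.04-fold higher in peak than in early lactation. IFIT2 had 2.80, 3.67 and 1.60 FPKM and was 2.30-fold lower in late than in peak lactation. In each IFIT gene the peak-labelled library was highest and the late-labelled one lowest. For IFIT3 and IFIT5 the step lay between peak and the other stages, while the early and late values were 1.10-fold and 1.45-fold apart.

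The other RNA-directed enzymes were less than 2-fold apart. EIF2AK2, encoding the kinase PKR that halts translation on sensing double-stranded RNA, had 22.6 FPKM in early, 22.8 FPKM in peak and 16.6 FPKM in late lactation, summed over its 2 rows. ADAR, which edits adenosine to inosine in double-stranded RNA, had 9.28, 7.58 and 9.14 FPKM and was lowest in the peak-labelled library. The span of EIF2AK2 is also listed for another gene ID, with 1.71 to 2.43 FPKM, so reads of overlapping genes may be split between them. MX1, a large GTPase that traps viral ribonucleoproteins and a pregnancy marker in ruminant blood cells, was the only one of the 4 listed GTPases with values. It had 3.17 FPKM in early, 6.78 FPKM in peak and 2.79 FPKM in late lactation, 2.14-fold higher in peak than in early lactation. Early and late lactation were 1.14-fold apart.

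**Figure D3:**
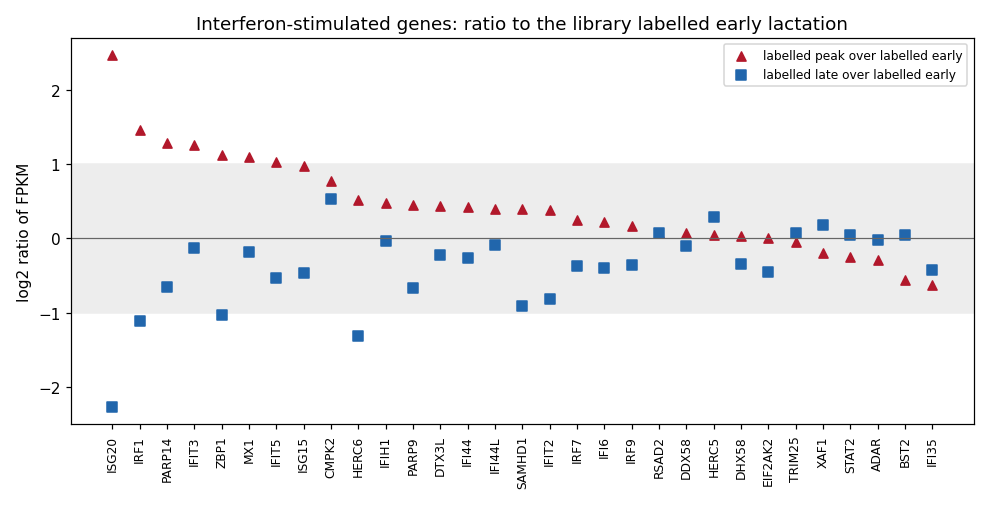
Log2 ratio of FPKM to the early-labelled library, for the peak-labelled (triangles) and late-labelled library (squares), in each of the 31 interferon-stimulated genes, ordered by the first ratio, with the range within 2-fold shaded. The 7 triangles above the shading are ISG20 to IFIT5, and the 4 squares below it are ISG20, IRF1, ZBP1 and HERC6. Both ratios of a gene share the early value.

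ISG15 is a ubiquitin-like protein that is attached to other proteins or secreted. It had 3.22 FPKM in early, 6.35 FPKM in peak and 2.33 FPKM in late lactation. The ratio of peak over early lactation was 1.97-fold, just inside the 2-fold limit, and late lactation was 2.72-fold below peak lactation. HERC6, a ligase that attaches ISG15 in rodents, had 1.60, 2.29 and 0.644 FPKM, 2.48-fold lower in late than in early lactation. With a pseudocount of 1 FPKM, this log2 ratio went from -1.31 to -0.66, within 2-fold. TRIM25, the ubiquitin ligase that activates RIG-I, had 7.78, 7.56 and 8.18 FPKM, and its extremes were 1.08-fold apart.

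HERC5, the main ligase for ISG15 in humans, depended on which rows were counted. Summed over its 4 rows it had 19.1 FPKM in early, 19.8 FPKM in peak and 23.3 FPKM in late lactation, within 1.22-fold. The row under the gene ID alone had 1.42, 4.10 and 1.33 FPKM, a log2 ratio of 1.53 for peak over early lactation. The other 3 rows, assembled by the authors and assigned to the same ID, had log2 ratios of -0.84 to 0.04 for this comparison. All rows carry the same span, which is also listed for a further gene ID, so the HERC5 value is uncertain. The summed value is the one counted here, following the rule for genes with several rows.

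PARP14 and PARP9 belong to the ADP-ribosyl transferase family, DTX3L is a ubiquitin ligase that binds PARP9, and the 3 genes lie side by side. PARP14 had 7.61 FPKM in early, 18.6 FPKM in peak and 4.82 FPKM in late lactation. It was 2.44-fold higher in peak than in early lactation and 3.86-fold lower in late than in peak lactation. PARP9 had 7.08, 9.69 and 4.44 FPKM, and DTX3L had 10.1, 13.7 and 8.63 FPKM. The order of the stages was the same in the 3 genes, while the ratio of peak over early lactation was 1.37-fold for PARP9 and 1.36-fold for DTX3L.

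The enzymes that act on nucleotides were mostly within 2-fold. SAMHD1, which degrades deoxynucleotides and is high in myeloid cells, had 15.5 FPKM in early, 20.4 FPKM in peak and 8.30 FPKM in late lactation, 2.46-fold lower in late than in peak lactation. RSAD2, encoding viperin, which makes a chain-terminating nucleotide, had 2.35, 2.49 and 2.48 FPKM, and its extremes were 1.06-fold apart, the narrowest spread of the 31 genes. CMPK2, a mitochondrial nucleotide kinase, had 2.82, 4.84 and 4.06 FPKM, with its lowest value in the early-labelled library.

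The membrane, mitochondrial and other proteins were less than 2-fold apart in every comparison for all 6 genes measured. IFI6, a mitochondrial and endoplasmic reticulum protein that limits apoptosis, had 21.9 FPKM in early, 25.5 FPKM in peak and 16.6 FPKM in late lactation. IFI44 and IFI44L, a related pair, had 5.62, 7.52 and 4.66 FPKM and 8.56, 11.2 and 8.05 FPKM. The remaining genes of this group did not have their highest value in the peak-labelled library. IFI35, a leucine zipper protein, had 29.9, 19.5 and 22.4 FPKM, the highest level of the 31 genes in early lactation. XAF1, which favours apoptosis, had 4.49, 3.94 and 5.12 FPKM. BST2, encoding tetherin, which holds budding virus at the cell surface, had 2.07, 1.40 and 2.14 FPKM, with a span also listed for another gene ID. In IFI35, XAF1 and BST2, as in STAT2, ADAR and TRIM25, the peak-labelled library was the lowest, which held for 41.2% of all protein-coding genes. No such difference reached 2-fold.

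Several of these genes lie next to each other on the scaffolds, and neighbours did not always share a ratio. IFIT2, IFIT3 and IFIT5 are listed on scaffold NW_005100944.1 between 670117 and 736251, with gaps of 9.32 and 30.8 kb, and had log2 ratios of peak over early lactation of 0.39, 1.26 and 1.03. PARP9, DTX3L and PARP14 are on scaffold NW_005100603.1 between 2104028 and 2201289, with gaps of 1.30 and 15.7 kb and log2 ratios of 0.45, 0.44 and 1.29. RSAD2 and CMPK2 are 18.9 kb apart on scaffold NW_005100781.1 and had log2 ratios of 0.08 and 0.78. Within the first and the second cluster, at least 1 gene was past 2-fold and at least 1 was not. IFI44 and IFI44L, 15.2 kb apart on scaffold NW_005100641.1, were alike, with log2 ratios of 0.42 and 0.39. HERC5 and HERC6, 9.77 kb apart on scaffold NW_005100696.1, had log2 ratios of 0.05 and 0.52. The positions are as deposited, on an assembly that the deposited table does not name.

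Upstream of these genes, the interferon pathway was measured through 28 of 36 listed ligands, receptors, kinases, transcription factors, sensors and inhibitors. Between early and peak lactation, 2 were at least 2-fold higher in peak lactation and 1 was lower. Between early and late lactation, 4 were lower in late lactation and 0 higher, and between peak and late lactation 8 were lower in late lactation and 0 higher. These shares, 7.14% and 3.57%, 14.3% and 28.6%, stand beside 10.9%, 6.8%, 6.74% and 17.4% of all protein-coding genes in the same directions. The median log2 ratios of the pathway were 0.20, -0.21 and -0.48 for peak over early, late over early and late over peak lactation.

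Of the listed interferon genes themselves, only IFNK had values, and IFNB1, IFNG, IFNE, IFNL3 and IFNT were not analysed here. IFNK, a type I interferon known from keratinocytes, had 1.62 FPKM in early, 1.94 FPKM in peak and 1.27 FPKM in late lactation. The receptor subunits for type I interferon, IFNAR1 and IFNAR2, had 10.2, 16.4 and 9.74 FPKM and 8.03, 14.1 and 5.82 FPKM, and IFNAR2 was 2.42-fold lower in late than in peak lactation. The subunits for interferon gamma ran in different directions. IFNGR1, the ligand-binding chain, had 28.8, 44.8 and 19.5 FPKM and was 2.30-fold lower in late than in peak lactation. IFNGR2, the second chain, had 99.3, 81.6 and 116 FPKM and was lowest in the peak-labelled library.

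Inside the cell, the kinase JAK1 had 112, 65.3 and 126 FPKM in early, peak and late lactation, within 2-fold, at a span shared with another row. IRF8, a factor of myeloid and B cells, had 10.3, 15.8 and 5.03 FPKM, 2.05-fold lower in late than in early lactation. The endosomal receptors TLR3 and TLR7 had 3.45, 6.67 and 2.52 FPKM and 1.32, 2.71 and 1.17 FPKM, and TLR7 was 2.05-fold higher in peak than in early lactation.

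The feedback inhibitors of cytokine signalling did not move together. SOCS3, induced mainly by STAT3, had 4.87 FPKM in early, 10.7 FPKM in peak and 1.69 FPKM in late lactation, 2.20-fold higher in peak and 2.87-fold lower in late than in early lactation. SOCS1, which is induced by interferon and blocks JAK kinases, had 4.14, 2.04 and 1.29 FPKM, 2.03-fold lower in peak and 3.21-fold lower in late than in early lactation. SOCS1 was thus the one pathway gene at least 2-fold lower in peak than in early lactation.

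Of a separate list of 40 further interferon-response genes, 24 had values. Like the other lists, this one was chosen with earlier results of these data known. The peak-labelled library was highest for 20 of the 24, or 83.3%, against 43.7% of all protein-coding genes. Between early and peak lactation, 6 were at least 2-fold higher in peak lactation and 1 was lower, a share of 25% higher beside 10.9% of all protein-coding genes. From early to late lactation, 6 were lower in late lactation and 0 higher, a share of 25% beside 6.74%. Between peak and late lactation, 14 were lower in late lactation and 0 higher, a share of 58.3% beside 17.4%. The median log2 ratios were 0.56, -0.52 and -1.11 for peak over early, late over early and late over peak lactation.

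CXCL10, a chemokine that draws T cells, is strongly induced by interferon gamma. It had 18.6 FPKM in early, 42.3 FPKM in peak and 2.70 FPKM in late lactation. It was 15.7-fold lower in late than in peak lactation, at a span shared with 2 other rows. PSMB9 and PSMB8, subunits of the immunoproteasome, had 15.2, 51.4 and 10.5 FPKM and 53.9, 72.0 and 25.8 FPKM. PSMB9 was 3.38-fold higher in peak than in early lactation, and PSMB8 2.09-fold lower in late than in early lactation. EPSTI1, a gene first known from breast epithelium next to stroma, had 5.23, 13.0 and 2.27 FPKM. SLFN11, which cleaves transfer RNA, had 1.75, 4.67 and 0.868 FPKM, and SAMD9, an antiviral protein, 6.09, 13.4 and 3.92 FPKM. These 3 genes were 2.48-fold, 2.67-fold and 2.20-fold higher in peak than in early lactation.

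RTP4, a chaperone of membrane receptors, was the one gene of this list at least 2-fold lower in peak than in early lactation. It had 14.0 FPKM in early, 5.87 FPKM in peak and 11.7 FPKM in late lactation, a ratio of 2.39-fold between early and peak lactation. LAMP3, a lysosomal protein of mature dendritic cells, had 2.44, 3.37 and 1.08 FPKM and was 2.25-fold lower in late than in early lactation. Past 2-fold only between peak and late lactation were TRIM14, UBE2L6, TAP1, PML, PARP12 and RNF213, each lower in late lactation by 2.05-fold to 3.34-fold. TAP1 is the peptide transporter of antigen presentation, UBE2L6 the conjugating enzyme of ISG15 and PML the scaffold of nuclear bodies. For TAP1 the values were 18.6, 27.4 and 10.3 FPKM, and for UBE2L6 they were 9.38, 14.4 and 6.59 FPKM.

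Leukocyte markers were also mostly highest in the peak-labelled and lowest in the late-labelled library. Of 9 listed leukocyte markers, 8 were highest in the peak-labelled library, or 88.9%, against 43.7% of all protein-coding genes. The sum over the 9 markers was 60.2 FPKM in early, 112 FPKM in peak and 34.0 FPKM in late lactation. PTPRC, encoding the pan-leukocyte surface protein CD45, had 17.6, 39.9 and 8.08 FPKM, 2.26-fold higher in peak and 2.18-fold lower in late than in early lactation. The B cell marker MS4A1 had 0.239, 3.07 and 0.132 FPKM, the T cell marker CD3D 2.68, 10.4 and 1.23 FPKM, and the monocyte marker CD14 12.4, 12.5 and 11.3 FPKM. CD3E, another T cell marker, was listed at 0 in early and peak and at 1.43 FPKM in late lactation. The span of CD3E is shared with 2 other rows. Of the 31 interferon-stimulated genes, 4 had a higher ratio of peak over early lactation than PTPRC, and 2 a lower ratio of late over early lactation. The part of leukocyte number in the interferon-stimulated genes was not tested.

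Of the other cell type markers, some were also highest in the peak-labelled and lowest in the late-labelled library, and others were not. Of the 7 secretory and luminal markers, 5 were lower in the peak-labelled than in the early-labelled library and 2 were higher. CSN3 and ELF5 were 6.38-fold and 3.61-fold lower, and LALBA had 70053 FPKM in early and 15214 FPKM in peak lactation. EPCAM and KRT19 were lower within 2-fold, while KRT8 and KRT18 were 1.56-fold and 1.53-fold higher. The plasma cell markers JCHAIN and MZB1 were 1.61-fold and 3.39-fold higher in peak than in early lactation. The neutrophil marker S100A9 had 4.84, 13.8 and 1.84 FPKM, and S100A8 had 4.65 and 7.57 FPKM in early and peak lactation and was listed at 0 in late lactation. The 3 endothelial and 3 myoepithelial markers were within 2-fold in each comparison, with sums of 81.6 to 90.9 FPKM and 159 to 184 FPKM. Of the 4 fibroblast markers, 3 were lower in peak than in early lactation, with COL3A1 2.08-fold lower. COL1A1 had 78.2 and 46.3 FPKM, and COL1A2 had 138 and 65.8 FPKM, in early and peak lactation. PDGFRA was 2.04-fold higher in peak than in early lactation. The adipocyte marker ADIPOQ had 15.1, 4.10 and 5.69 FPKM.

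**Figure D4:**
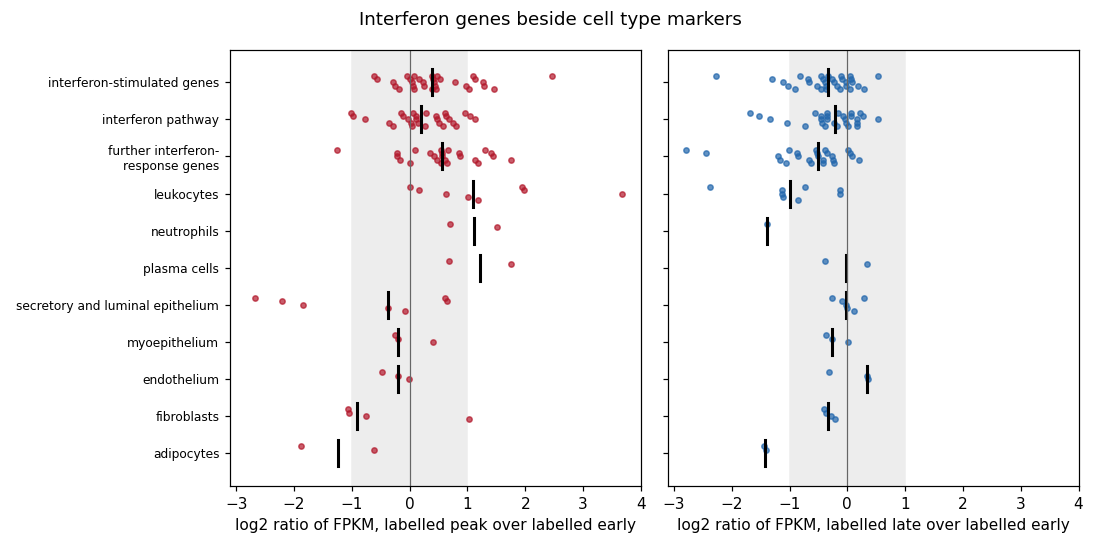
Log2 ratio of FPKM for peak over early (left) and late over early lactation (right) by label, with 1 point per gene, a black bar at the median of the points shown and the range within 2-fold shaded, for the interferon-stimulated genes, the interferon pathway, further interferon-response genes and cell type markers. Genes listed at 0 in either library of a panel are not shown, which leaves 1 neutrophil marker in the right panel. The leukocyte, neutrophil and plasma cell medians lie to the right of 1 in the left panel, and the interferon-stimulated genes have a median of 0.39 there.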

How the data were processed

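The deposited values are FPKM for 50041 rows in 1 column per library of pooled RNA. The authors trimmed the reads with Trimmomatic, mapped them to the goat genome with TopHat2 2.0.9 and assembled transcripts with Cufflinks 2.1.1, per the submitters' processing notes. Cuffmerge joined the assemblies, and Cuffdiff gave the FPKM. The methods name a goat genome version for mapping and a goat reference genome for assembly, and do not say to which of them the deposited scaffold positions belong. Of the values with 7 digits, 95.7% to 99.3% per library end in 5, as means of a pair of 6-digit values would, which the methods do not mention. No per-sample column was left out.

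Rows with a single gene ID (15274) were summed by ID, and symbols came from the NCBI gene table for assembly ARS1.2. An FPKM of 0 was set to 0.001 for ratios. A gene was called at a ratio of at least 2, without a test, since each stage has 1 library, and members were read beside all protein-coding genes above 0 in either library. The members, roles and other lists were chosen with earlier results of these data known. All members with values are named. Of the pathway and further lists, those at least 2-fold apart with a mean of at least 1 FPKM are named, with the interferon receptors, and a pathway gene that the rule would name is not reported here. IFNK, JAK1 and CD14 were named after their values were seen. Alternatives were other thresholds, pseudocounts, a minimum level, scaling, rows kept apart, exchanged columns and members without copies. Depth per gene is unknown. Python 3.11.15, numpy 2.4.6, pandas 2.3.3 and matplotlib 3.10.9 were used.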

Additional observations from a re-analysis of the deposited data

How the results depend on the processing

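The values rest on 1 pooled library per stage, on unknown read numbers and on column labels whose assignment to stages was not settled. The cause of a moved value was not tested, beyond thresholds, pseudocounts and smaller lists calling fewer genes by construction. There was no replicate to leave out. No paired analysis was possible because a stage is represented by 1 library only.

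In the order peak over early, late over early and late over peak lactation, the genes at least 2-fold apart numbered 7, 4 and 12. With a pseudocount of 1 there were 4, 1 and 10, at 3-fold 1, 1 and 5, at 1.5-fold 10, 8 and 17, and without the 10 genes that have copies or share a span 4, 3 and 7 of 21. With the columns labelled peak and late exchanged there were 4, 7 and 12, with each direction turned. With the same FPKM sum per library there were 8, 2 and 12. In this setting 1 gene was highest in early lactation in place of 2, and all log2 ratios moved by 0.14, 0.13 and -0.02. The other settings left these counts within 1.5 times.

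The median log2 ratios of 0.39, -0.34 and -0.62 kept their sign except with exchanged columns, where they were -0.34, 0.39 and 0.62. They were 0.34, -0.29 and -0.51 with a pseudocount of 1, 0.41 and -0.32 for the first pair when centred on protein-coding genes, 0.54, -0.21 and -0.63 with the same sum, and 0.24, -0.36 and -0.53 without copies. With rows kept apart the latter pair were -0.27 and -0.53, and with a pseudocount of 0.1 they were -0.33 and -0.60. Scaling to the same sum over rows below 1000 FPKM, chosen after the data were seen, gave 0.60, -0.32 and -0.81 and moved all ratios by 0.21, 0.02 and -0.19. For the pathway and further genes together, 10, 10 and 22 were at least 2-fold apart, and 6, 4 and 18 with a pseudocount of 1. Of 93 ratios of single genes, 85 kept their side of 2-fold with a pseudocount of 1 and 8 left it.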
